A study of Mus musculus with 8 samples.

Results

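The dual-specificity MAPK phosphatases examined here were 9 genes chosen by symbol (Dusp1, Dusp2, Dusp4, Dusp5, Dusp6, Dusp7, Dusp8, Dusp10 and Dusp16) out of 29955 gene names listed for every library. All 9 were found in all 8 RNA-seq libraries. The libraries came from bone marrow cells of mice labelled as CD57BL6/J, either wild type (WT) or Ripk3 knockout (Ripk3-/-), and fell into 4 groups of 2, an LSK and an LK group for each genotype. LSK cells were sorted as Lin- Sca1+ Kit+ and contain the hematopoietic stem cells and multipotent progenitors, whereas LK cells, labelled Lin- Kit+ and defined in the study as also lacking Sca1, consist mainly of more committed myeloid progenitors. Ripk3 encodes a kinase of the necroptosis pathway. The labels describe mice that received no treatment, whereas the methods of the study describe fractionated X-ray irradiation of both genotypes before the cells were taken, and this conflict could not be settled from the data. The labels give neither the age of the mice nor the number of mice behind each library.

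MAP kinases are switched on by phosphorylation of a threonine and a tyrosine in their activation loop, and dual-specificity MAPK phosphatases switch them off by removing both phosphates. Dusp1, Dusp2, Dusp4 and Dusp5 encode nuclear enzymes whose genes are themselves induced by MAPK signaling, so that they act as negative feedback. Dusp6 and Dusp7 encode cytoplasmic enzymes that prefer ERK, and Dusp8, Dusp10 and Dusp16 encode enzymes that prefer JNK and p38. The mRNA of such feedback genes is often read as a trace of recent pathway activity, but mRNA does not report the activity of the enzyme or of its substrate.

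The libraries held between 9782166 and 16280811 reads assigned to genes. Levels are given as CPM, reads scaled to a common library size, and on the joint scale all 8 libraries share one set of scaling factors. Ripk3 itself ranged from 142.5 to 168.9 CPM (joint scale) in the 4 WT libraries and from 0.941 to 18.4 in the 4 Ripk3-/- libraries. The sorted populations matched their markers: 7 of 8 LSK marker genes were higher in LSK cells and 8 of 8 LK marker genes were lower, in each genotype, and Ly6a, which encodes Sca1, was higher in WT LSK than in WT LK cells by 5.94 on the log2 scale. Genotype and sex could not be told apart, because Xist was read in all 4 WT libraries (123.1 to 362.5 CPM) and the Y-linked gene Eif2s3y in all 4 Ripk3-/- libraries (51.5 to 86.4) and in 0 of 4 WT libraries. In addition, 7 mature neutrophil markers that could be read summed to between 584 and 861 CPM in WT libraries and to between 1825 and 2253 in Ripk3-/- libraries, with none of the 7 at 0 in any group, although the lineage stain of the sort would remove mature neutrophils. The part that sex or these markers play in any difference between genotypes below was not tested. In these bulk libraries, fewer cells with a transcript and less transcript per cell cannot be told apart.

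The upstream sequences of Dusp1, Dusp2, Dusp5 and Dusp6 are shown first, because several of these genes are known as immediate targets of signal-driven transcription factors. They were picked by motif and by mRNA, as given below. Dusp10, whose mRNA was lower without overlap in Ripk3-/- libraries of both populations, is not among them. RefSeq promoter windows (GRCm38.p6) were matched for 8 of 9 members; Dusp4 was not matched. Each window covered the 250 bases before the RefSeq transcription start, and both strands were searched for the cyclic AMP response element (CRE) TGACGTCA, its 5-base core TGACG, which also lies inside the full element, the AP-1 element TGANTCA, the CArG box bound by serum response factor, and the EGR element GCGNGGGCG. Dusp1 is shown for its CRE, and Dusp5 for a pair of CArG boxes that adjoin each other. Dusp2 is shown for its EGR element and because its mRNA differed most between genotypes in LK cells. Dusp6 is shown as a member with none of these motifs that, like Dusp1 and Dusp5, was higher in LSK cells in both genotypes. The size of that gap differed between Dusp5 and Dusp6. Capitals mark matches to the CRE, its core, the CArG box or the EGR element, and bases that GENCODE M21 places inside an exon were left out. The stretches are read 5′ to 3′ on the strand of the gene and lie at chr17:26508520-26508722 (minus strand) for Dusp1, chr2:127335909-127336158 (plus strand) for Dusp2, chr19:53528895-53529108 (plus strand) for Dusp5 and chr10:99262981-99263230 (plus strand) for Dusp6.
Dusp1: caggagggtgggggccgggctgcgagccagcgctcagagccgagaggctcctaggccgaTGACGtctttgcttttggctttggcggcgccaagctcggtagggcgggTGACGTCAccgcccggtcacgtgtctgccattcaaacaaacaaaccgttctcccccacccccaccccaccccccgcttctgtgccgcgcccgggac
Dusp2: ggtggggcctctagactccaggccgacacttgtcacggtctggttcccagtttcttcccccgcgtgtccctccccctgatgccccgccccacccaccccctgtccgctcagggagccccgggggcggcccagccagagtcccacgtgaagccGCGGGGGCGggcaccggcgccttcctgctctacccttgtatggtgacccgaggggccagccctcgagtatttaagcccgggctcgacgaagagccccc
Dusp5: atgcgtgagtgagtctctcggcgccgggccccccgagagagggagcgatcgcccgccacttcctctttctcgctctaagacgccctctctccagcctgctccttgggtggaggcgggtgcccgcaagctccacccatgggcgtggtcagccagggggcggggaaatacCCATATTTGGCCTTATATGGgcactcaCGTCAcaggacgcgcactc
Dusp6: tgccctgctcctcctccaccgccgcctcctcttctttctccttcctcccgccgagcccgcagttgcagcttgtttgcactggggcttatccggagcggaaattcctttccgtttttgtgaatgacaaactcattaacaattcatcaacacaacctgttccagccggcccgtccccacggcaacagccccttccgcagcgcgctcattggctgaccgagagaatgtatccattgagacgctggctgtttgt

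The full CRE was found in 2 of 8 member windows (Dusp1 and Dusp8) and in 1.55% of all 32851 promoter windows. Its core was found in 4 of 8 member windows (Dusp1, Dusp5, Dusp8 and Dusp16) and in 17.8% of all windows. The CArG box was found in 1 of 8, that of Dusp5, and in 1.47% of all windows. The EGR element was found in 2 of 8 (Dusp2 and Dusp16) and in 4.70% of all windows, and the AP-1 element in 0 of 8 and in 6.75% of all windows. In the Dusp1 window the CRE lay at bases -143 to -136 from the start, and in the Dusp5 window the CArG boxes lay at bases -82 to -73 and -72 to -63. These are letter matches only, and they say nothing of binding in these cells.

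**Figure D1:**
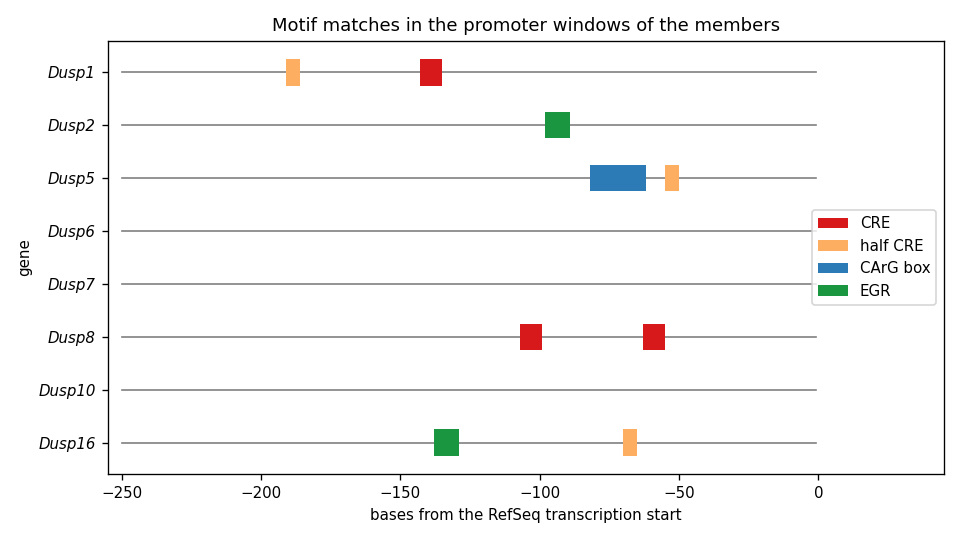
Positions of motif matches in the 250 bases before the RefSeq start of 8 members (x axis: bases from the start; 1 row per gene; coloured boxes: matches on either strand; a core inside a full CRE is not drawn apart). Dusp1 and Dusp8 hold the full CRE and Dusp5 holds the CArG boxes, while no match falls in the Dusp6, Dusp7 and Dusp10 windows.

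All 9 genes are annotated as protein coding in GENCODE M21 (GRCm38). Dusp1 spans chr17:26505590-26562128, Dusp2 chr2:127336159-127338376, Dusp4 chr8:34807297-34819894, Dusp5 chr19:53529109-53542431 and Dusp6 chr10:99263231-99267489. Dusp7 spans chr9:106368632-106375724, Dusp8 chr7:142079490-142095843, Dusp10 chr1:184013302-184075636 and Dusp16 chr6:134715468-134792625. A transcript of AC137853.2 overlaps exons of Dusp5 on the opposite strand; the kit was stranded, but whether the counting used strand is not given in the sources used here, so reads of the pair may not be separated. For the other 8 members, 0 transcripts of other genes were at least 90% identical over at least 200 bases.

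Taken per kilobase of their longest annotated coding transcript, so that genes of different length can be compared, Dusp1, a phosphatase of p38, JNK and ERK, had the highest level in every group. It was at 1277 ± 35.5 CPM per kilobase (mean ± SD, n = 2) in WT LSK, 1679 ± 245 in Ripk3-/- LSK, 827 ± 128 in WT LK and 965 ± 138 in Ripk3-/- LK cells. Dusp1 took between 76.0% and 91.4% of the members' reads in each library and ranked between 7 and 19 among all genes by reads in LSK libraries and between 30 and 56 in LK libraries. In 3 of 4 groups the order then ran Dusp2, Dusp6 and Dusp5, with ranges that did not overlap between neighbours. In WT LSK cells these levels were 179 ± 51.1, 119 ± 7.51 and 26.5 ± 0.455 per kilobase. In Ripk3-/- LK cells the order was different, since Dusp6 (46.0 ± 4.86) stood above Dusp2 (28.5 ± 13.8). Dusp4, Dusp7, Dusp10 and Dusp16 stayed between 0.521 and 7.004 per kilobase as group means, and most of these neighbours overlapped. As a group mean Dusp8 was lowest in all 4 groups, at 0.0801 to 0.327 per kilobase. In single LK libraries it was not always lowest, since Dusp4 lay below it in replicate 1 of both genotypes and Dusp16 in Ripk3-/- replicate 2.

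**Figure D2:**
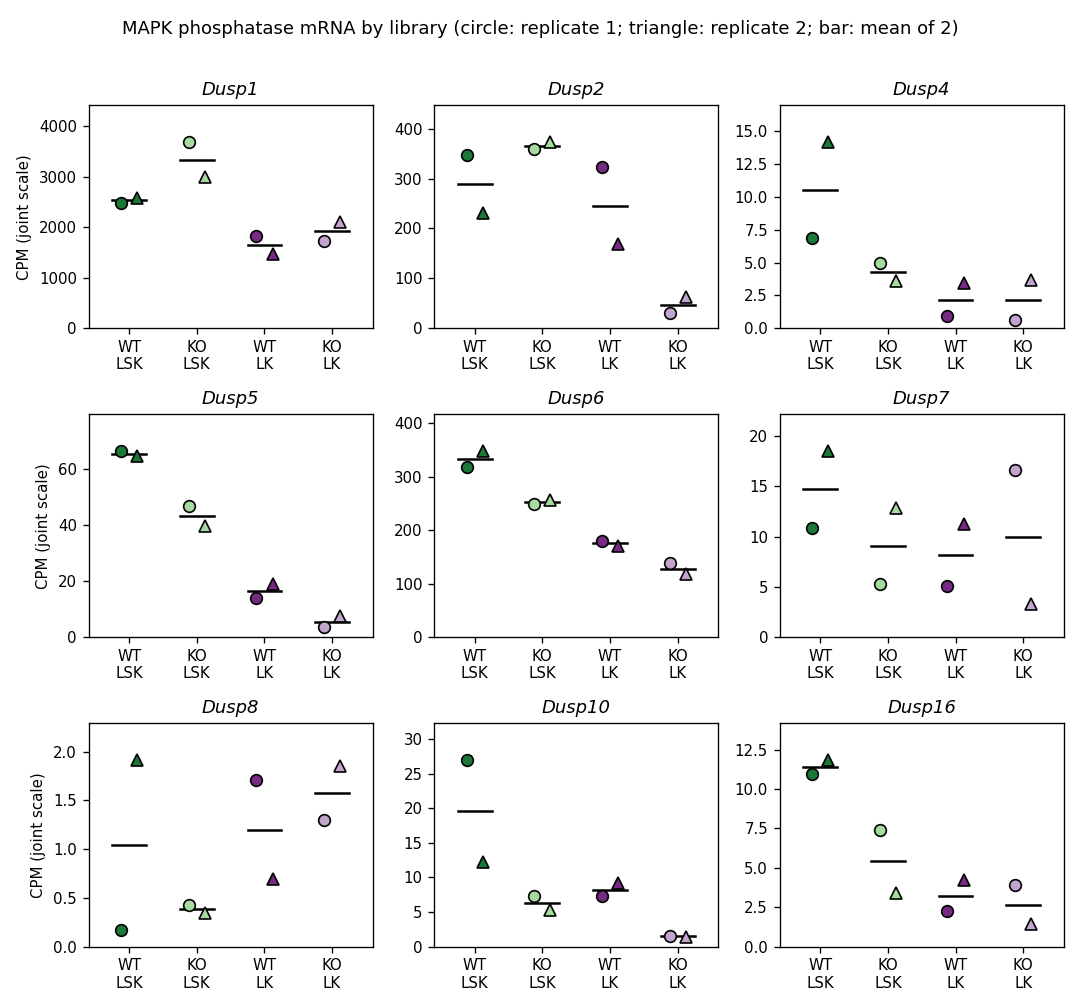
CPM on the joint scale (y axis, linear, from 0) for each of 9 genes in the 4 groups (x axis; circle: replicate 1, triangle: replicate 2, bar: mean of 2). Dusp1, Dusp5 and Dusp6 sit higher in every LSK library than in every LK library, and Dusp2 is lowest in the 2 Ripk3-/- LK libraries.

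The first comparison asked which members differed between WT and Ripk3-/- LK cells. Of the 4 nuclear members, Dusp2 and Dusp5 were lower in both Ripk3-/- libraries, and Dusp1 and Dusp4 overlapped. Values here and in the LSK comparison are the deposited signal, a CPM scaled within each population, and fold changes are from limma on log2(signal + 1). The members were chosen with these LK values known, so the genotype differences in LK cells are given as description, without a p-value.

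Dusp2, a nuclear phosphatase of ERK and p38 that is prominent in activated immune cells, showed the widest gap. Its signal was 283 and 149 in WT LK replicates 1 and 2, and 26.7 and 54.0 in Ripk3-/- LK replicates 1 and 2. Both Ripk3-/- values lay below both WT values, and the fold change was -2.41 on the log2 scale (SE 0.29), or 5.30-fold lower. The replicates themselves were 1.89-fold apart in WT and 2.02-fold apart in Ripk3-/-, with replicate 1 higher in WT and replicate 2 higher in Ripk3-/-. Without WT LK replicate 1 the log2 fold change was -1.95, and without WT LK replicate 2 it was -2.86, so the size but not the direction rested on which WT library was kept.

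Dusp5, a nuclear phosphatase specific for ERK, was also lower in both Ripk3-/- LK libraries. Its signal was 12.4 and 16.8 in WT against 3.17 and 6.71 in Ripk3-/- cells, a log2 fold change of -1.44 (SE 0.38). Dusp1 overlapped between genotypes, at 1601 and 1298 in WT against 1520 and 1844 in Ripk3-/- cells (log2 fold change 0.22, SE 0.15). Dusp4, a nuclear phosphatase close to Dusp1, was near the low end of what these libraries could measure. Its signal was 0.815 and 3.05 in WT against 0.571 and 3.23 in Ripk3-/- LK cells, from 9 to 52 reads, and replicate 1 was the lower of the pair in both genotypes.

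Of the cytoplasmic pair, Dusp6, the feedback phosphatase of ERK, was 158 and 151 in WT against 122 and 104 in Ripk3-/- LK cells, which did not overlap and gave a log2 fold change of -0.46 (SE 0.18). Its WT replicates were only 1.05-fold apart. Dusp7 was 4.48 and 10.0 in WT against 14.6 and 2.92 in Ripk3-/- LK cells, so that its highest and its lowest value were both Ripk3-/- libraries, and the log2 fold change of 0.01 (SE 0.63) averaged replicates that were 4.997-fold apart.

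Among the phosphatases that prefer JNK and p38, Dusp10 was 6.45 and 8.09 in WT LK cells against 1.40 and 1.18 in Ripk3-/- LK cells. The groups did not overlap, replicates were 1.25-fold and 1.18-fold apart, and the log2 fold change was -1.85 (SE 0.56). Dusp16 was 1.97 and 3.74 in WT against 3.42 and 1.24 in Ripk3-/- LK cells, and Dusp8 was 1.49 and 0.611 in WT against 1.14 and 1.61 in Ripk3-/- LK cells. Both of these overlapped between genotypes, and Dusp8 rested on 8 to 26 reads per library.

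Over the 9 members in LK cells, 4 were lower in Ripk3-/- without overlap (Dusp2, Dusp5, Dusp6 and Dusp10) and 5 overlapped, where 19.9% of all 13949 genes tested were lower without overlap. By limma with Benjamini-Hochberg adjustment 1 member passed the 0.05 threshold, Dusp2, against 0.473% of all genes. With DESeq2 on the recovered reads 3 members passed it (Dusp2, Dusp5 and Dusp10), against 1.27% of all genes. For the difference of the genotype effect between populations (LSK minus LK), 1 member passed, again Dusp2, at 2.77 (SE 0.41), against 0.358% of 15901 genes. Nothing is read from these counts, since the choice of members used the same contrast. The median log2 fold change was -0.25 over the members and 0.01 over all genes.

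The spread between replicates is given as a description, since it was already known when the members were chosen that WT LK replicates differ at some of them. In WT LK cells the median difference between replicates, without sign, was 0.63 on the log2 scale over the 9 members and 0.33 over all genes, and in Ripk3-/- LK cells it was 0.89 and 0.32. In WT LSK cells the members' median was 0.36 against 0.45 for all genes, and in Ripk3-/- LSK cells 0.33 against 0.43. Members that were at least 2-fold apart on the log2(signal + 1) scale were Dusp4 and Dusp7 in both LK groups, Dusp10 in WT LSK and Dusp7 in Ripk3-/- LSK cells. At least 2-fold differences between replicates were found for 12.2% of genes in WT LK, 11.1% in Ripk3-/- LK, 20.2% in WT LSK and 19.5% in Ripk3-/- LSK cells. Members other than Dusp1, Dusp2 and Dusp6 had at most 760 reads in any library, which limits the precision of each single value.

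In LSK cells the comparison of genotypes gave no member past the adjusted threshold. Dusp10 was 30.7 and 13.9 in WT against 8.20 and 5.97 in Ripk3-/- LSK cells. Every Ripk3-/- value was below every WT value, and the log2 fold change was -1.44 (SE 0.56, adjusted p = 0.183 by limma), but the WT replicates were 2.21-fold apart. Dusp6 was 362 and 396 in WT against 281 and 293 in Ripk3-/- LSK cells (log2 fold change -0.40, SE 0.18, adjusted p = 0.247 by limma), with replicates close together in both groups. Dusp5 was 75.5 and 73.7 in WT against 52.7 and 45.3 in Ripk3-/- LSK cells, again without overlap (log2 fold change -0.60, SE 0.38, adjusted p = 0.416 by limma).

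Dusp4 and Dusp16 had the same arrangement at low levels. Dusp4 was 7.85 and 16.2 in WT against 5.63 and 4.11 in Ripk3-/- LSK cells, and Dusp16 was 12.5 and 13.5 in WT against 8.36 and 3.91 in Ripk3-/- LSK cells. Their log2 fold changes were -1.08 (95% confidence interval -2.48 to 0.31) and -1.04 (-2.32 to 0.23).

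Dusp1 and Dusp2 had the opposite sign in LSK cells. Dusp1 was 2838 and 2952 in WT against 4160 and 3425 in Ripk3-/- LSK cells, which is a difference of 0.38 on the log2 scale (SE 0.15, adjusted p = 0.176 by limma; 95% confidence interval 0.08 to 0.69 before adjustment). Dusp2 was 396 and 263 in WT against 404 and 426 in Ripk3-/- LSK cells, so that the Ripk3-/- libraries were higher but WT replicate 1 was close to them, and the log2 fold change was 0.36 (SE 0.29, adjusted p = 0.544 by limma). Dusp7 overlapped (12.4 and 21.0 in WT, 6.03 and 14.7 in Ripk3-/-; log2 fold change -0.71, SE 0.63). Dusp8 had a mean signal under 1 and was not tested in LSK cells; its libraries held 2 and 21 reads in WT and 6 and 4 in Ripk3-/-, and the 2 reads were under the floor of 3 reads.

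Of the 8 members tested in LSK cells, 0 passed the adjusted threshold by limma, where 2.16% of 16817 genes did, and edgeR and DESeq2 also gave 0. At an unadjusted p under 0.05 there were 3 members by limma (Dusp1, Dusp6 and Dusp10), where 17.9% of all genes were. Without overlap, 5 members were lower and 2 were higher in Ripk3-/- LSK cells, against 23.2% and 21.4% of all genes. With 2 libraries on each side, exact permutation reaches no p below 0.333.

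**Figure D3:**
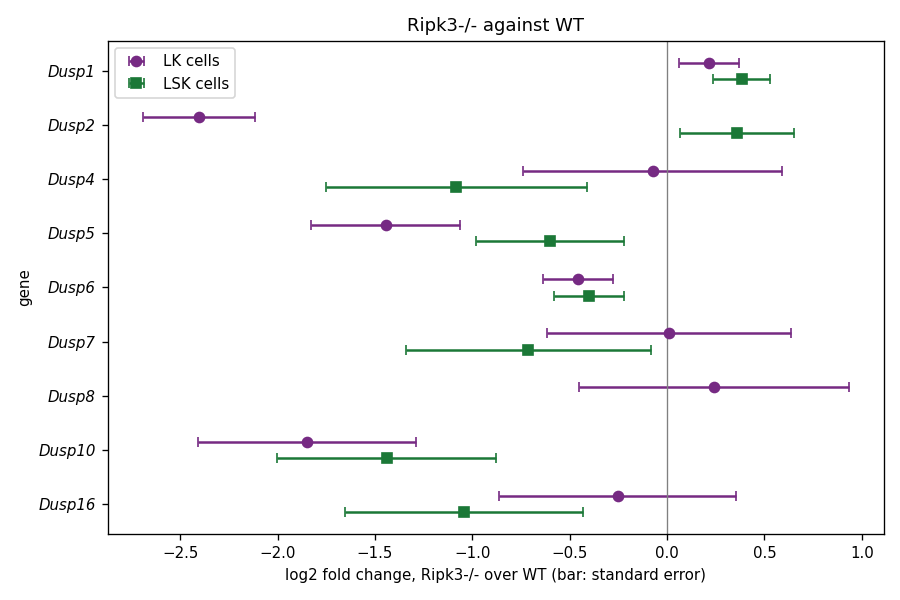
Log2 fold change of Ripk3-/- over WT (x axis; bar: standard error) for each member (y axis) in LK cells (circles) and LSK cells (squares). Dusp2 lies at -2.41 in LK and 0.36 in LSK cells, Dusp6 and Dusp10 lie below 0 in both, and Dusp8 has no LSK value because its mean signal was under 1.

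The second comparison, LSK against LK cells within each genotype, was made on the joint scale, with n = 2 libraries in each group. Dusp1, Dusp5 and Dusp6 were higher in LSK than in LK cells in WT and, in separate libraries, in Ripk3-/- mice. Of the nuclear members, Dusp5 had the widest gap in WT, from 16.5 ± 3.43 CPM (mean ± SD) in LK to 65.5 ± 1.13 in LSK cells, which is 1.94 on the log2 scale (SE 0.38, adjusted p = 0.00092 by limma). In Ripk3-/- cells it went from 5.64 ± 2.89 in LK to 43.1 ± 4.97 in LSK cells, which is 2.80 on the log2 scale (SE 0.38). The Ripk3-/- gap is given without a p-value, since its low Ripk3-/- LK values were known when the members were chosen. All 4 LSK libraries lay above all 4 LK libraries, and the WT call held under every alternative tried.

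Dusp6 was 175 ± 7.21 in WT LK and 333 ± 21.0 in WT LSK cells (log2 fold change 0.92, SE 0.18, adjusted p = 0.000906 by limma). It was 129 ± 13.6 in Ripk3-/- LK and 253 ± 5.47 in Ripk3-/- LSK cells (log2 fold change 0.97, SE 0.18). The Ripk3-/- value of Dusp6 is given without a p-value, since its low Ripk3-/- LK values were known when the members were chosen. The gap between populations was close to 2-fold in both genotypes, and the replicates were at most 1.17-fold apart. Of the alternatives tried, the fit with no trend of variance with level lost the WT call (adjusted p = 0.0528 by limma).

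Dusp1 was 1645 ± 255 in WT LK and 2541 ± 70.7 in WT LSK cells (log2 fold change 0.64, SE 0.16, adjusted p = 0.00543 by limma). In Ripk3-/- cells it was 1920 ± 273 in LK and 3341 ± 488 in LSK cells (log2 fold change 0.80, SE 0.15, adjusted p = 0.000636 by limma). The WT call held in 13 of 17 alternatives. It was lost with no filter, with no trend, without WT LSK replicate 2 and without WT LK replicate 2. Over all alternatives, edgeR and DESeq2 among them, the adjusted p ranged from 2.83e-06 to 0.151. The Ripk3-/- call was lost with no trend (adjusted p = 0.108 by limma) and held in the other 17 alternatives.

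Dusp4 passed in WT only narrowly, at 2.19 ± 1.78 in LK and 10.5 ± 5.16 in LSK cells (log2 fold change 1.90, SE 0.67, adjusted p = 0.0439 by limma). This call held in 8 of 17 alternatives. It was lost with edgeR, with DESeq2, with pseudocount 0.1, with no filter, with no trend and with median-centred libraries. Leaving out WT LSK replicate 1, WT LSK replicate 2 or WT LK replicate 1 lost it as well. In Ripk3-/- cells Dusp4 was 2.17 ± 2.16 in LK and 4.29 ± 0.984 in LSK cells, with a log2 fold change of 0.91 (95% confidence interval -0.48 to 2.31). The gap in Ripk3-/- cells minus that in WT cells was -1.01 (SE 0.94), so a difference of the gaps was not shown.

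Dusp2 overlapped between the populations in WT. It was 322.6 and 168.6 in WT LK replicates 1 and 2 and 348 and 231 in WT LSK replicates 1 and 2 (log2 fold change 0.28, SE 0.29, adjusted p = 0.493 by limma; 95% confidence interval -0.32 to 0.88). In Ripk3-/- cells it was 30.3 and 61.8 in LK and 358 and 373 in LSK cells, a log2 fold change of 3.05 (SE 0.29), which rests on the low Ripk3-/- LK libraries described above and is given without a p-value for that reason.

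Of the members that prefer JNK and p38, Dusp10 and Dusp16 had higher means in LSK cells in WT. By limma neither was called in WT, and Dusp16 was not called in Ripk3-/- cells. Dusp10 was 8.24 ± 1.25 in WT LK and 19.6 ± 10.4 in WT LSK cells (log2 fold change 1.06, SE 0.57, adjusted p = 0.172 by limma). It was 1.47 ± 0.165 in Ripk3-/- LK and 6.24 ± 1.45 in Ripk3-/- LSK cells (1.54, SE 0.56). The Ripk3-/- value of Dusp10 is given without a p-value, since its low Ripk3-/- LK values were known when the members were chosen. Dusp16 was 3.23 ± 1.40 in WT LK and 11.4 ± 0.592 in WT LSK cells (log2 fold change 1.59, SE 0.62, adjusted p = 0.0634 by limma; 0.0331 with library totals in place of TMM factors), and its Ripk3-/- values overlapped. Dusp8 had a log2 fold change of -0.21 (SE 0.63) in WT and was not tested in Ripk3-/- cells. Dusp7, the other cytoplasmic member, overlapped in both genotypes, with log2 fold changes of 0.81 (SE 0.63) in WT and 0.10 (SE 0.62) in Ripk3-/- cells.

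Counted together, 4 of 9 members were called higher in LSK than in LK cells of WT mice and 0 lower, where 9.16% of 15950 genes were called higher. The WT LK values were also known when the members were chosen, so this WT count and the WT p-values above are not independent of that choice. In Ripk3-/- mice 4 of 8 members tested were called higher and 0 lower, where 7.95% of 15237 genes were called higher, and Dusp1, Dusp5 and Dusp6 were among the 4 in both genotypes. The other member among the 4 in Ripk3-/- mice was Dusp2, which also enters the Ripk3-/- count without overlap and the median below, and nothing is read from its part in them, since the low Ripk3-/- LK values were known when the members were chosen. The same holds for the Ripk3-/- part of Dusp5 and of Dusp6, and for that of Dusp10 in the count without overlap and the median. Without overlap, 6 of 9 members were higher in WT LSK cells (32.8% of all genes) and 5 of 8 in Ripk3-/- LSK cells (27.5% of all genes). The members' median log2 fold change was 0.92 in WT and 0.94 in Ripk3-/- cells, beside 0.08 and 0.00 over all genes. With library totals in place of TMM factors the median of all genes moved to 0.46 in WT and 0.29 in Ripk3-/- cells, and Dusp1, Dusp5 and Dusp6 were still higher in LSK cells, by 1.06, 2.34 and 1.34 (log2) for WT and by 1.12, 3.09 and 1.29 for Ripk3-/- cells. The split of all calls moved as well: in WT 1461 genes were called higher and 2353 lower, against 2552 and 916 with library totals, and in Ripk3-/- cells 1212 and 1860, against 1884 and 996.

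**Figure D4:**
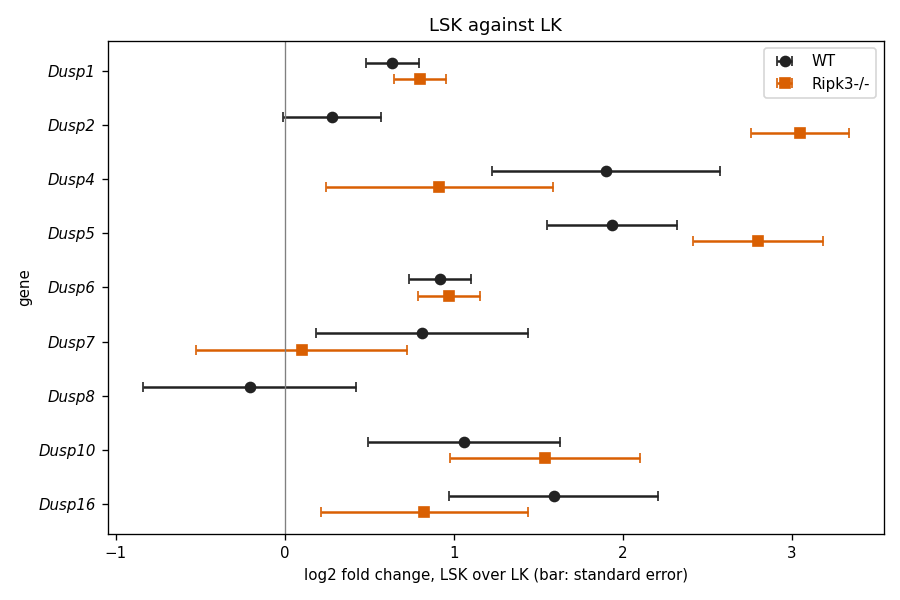
Log2 fold change of LSK over LK (x axis; bar: standard error) for each member (y axis) in WT (circles) and Ripk3-/- cells (squares), on the joint scale. Dusp1, Dusp5 and Dusp6 lie above 0 in both genotypes, at 0.64 and 0.80, 1.94 and 2.80, and 0.92 and 0.97.

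Genes of the same signaling pathway were followed in lists written for this purpose, with earlier results of these data known. Of all genes, limma called 9.16% higher in LSK cells in WT and 7.95% in Ripk3-/- mice. It called 2353 of 15950 lower in WT and 1860 of 15237 lower in Ripk3-/- mice. Immediate-early genes, the transcription factors and regulators that MAPK signaling induces first, were higher in LSK cells in 12 of 23 tested in WT and 16 of 22 tested in Ripk3-/- mice, with 0 lower in either, and all 12 of the WT calls were among the 16. In WT the widest gaps were at Nr4a1 (log2 fold change 3.07), Fosb (1.86), Zfp36 (1.57) and Fosl2 (1.55), all with adjusted p of 0.017 or less by limma. Of 10 ERK feedback inhibitors, 2 were higher in LSK cells in each genotype: Spry1, a Sprouty inhibitor of receptor signaling (1.80 in WT, 2.24 in Ripk3-/-), and Spred3 (2.04 and 2.07). The kinases that Dusp proteins act on moved in both directions. Among the MAP kinases, Mapk12 was higher (2.03) and Mapk13 and Mapk14 were lower (-1.92 and -0.56) in WT LSK cells, and Mapk12 (3.58) and Mapk11 (2.22) were higher in Ripk3-/- LSK cells. The WT call of Mapk13 was not made by edgeR or DESeq2, and the Ripk3-/- call of Mapk11 was not made by edgeR. Some of these rested on few reads: Mapk13 had 18 and 0 in WT LSK libraries, and Mapk12 had 0 and 6 in WT LK libraries. Mapk14 encodes p38 alpha. Of 7 MAP2 kinases, which phosphorylate the MAP kinases, 1 was higher (Map2k6 at 1.08) and 1 lower (Map2k1 at -0.84) in WT LSK cells, and 2 were lower in Ripk3-/- LSK cells (Map2k4 at -1.004 and Map2k3 at -0.63).

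Other phosphatases are given beside all genes, of which limma called 9.16% higher in LSK cells in WT and 7.95% in Ripk3-/- mice. It called 2353 of 15950 genes lower in WT and 1860 of 15237 lower in Ripk3-/- mice. Nothing particular to these phosphatases is read from their counts. Of 17 other dual-specificity phosphatases, 11 could be tested in WT and 9 in Ripk3-/- cells, and limma called 1 higher in LSK cells in each genotype, Dusp13 (1.86) in WT and Dusp18 (2.39) in Ripk3-/-. By edgeR and by DESeq2 the only call on this list was Dusp18, in both genotypes, so the WT call of Dusp13 rested on the tool and no difference between genotypes is read from these names. Of 6 phosphatases of other families that act on MAP kinases, Ptpn7, a tyrosine phosphatase of hematopoietic cells, was lower in LSK cells in both genotypes (-0.94 and -0.86), and Ppm1b was lower in Ripk3-/- LSK cells (-0.96).

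Heat-shock genes, which respond to stress, are given because they moved with population: 1 of 7 was higher and 5 were lower in LSK than in LK cells in each genotype. Of all genes, 2353 of 15950 were called lower in WT and 1860 of 15237 in Ripk3-/- mice. Their summed level on the joint scale was 2703 to 2878 CPM in WT LSK, 1630 to 1824 in Ripk3-/- LSK, 4029 to 4056 in WT LK and 3494 to 3830 in Ripk3-/- LK libraries. Their part in the members' differences was not tested.

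Between genotypes, calls on the same lists fell on immediate-early and heat-shock genes and on 1 MAP2 kinase. On the marker lists they fell on neutrophil and sex-linked genes and, in LSK cells only, on a few progenitor and monocyte markers. Over all genes tested, limma called 0.373% lower and 14 of 13949 higher in Ripk3-/- LK cells, and 1.27% lower and 0.892% higher in Ripk3-/- LSK cells. In LK cells 4 of 21 immediate-early genes were lower in Ripk3-/- cells: Jund (-2.26), Atf3 (-1.18), Nr4a1 (-1.10) and Junb (-0.88). In LSK cells 2 of 23 were lower, Atf3 (-1.37) and Nr4a1 (-1.06). None of the MAP kinases, ERK feedback inhibitors, other dual-specificity phosphatases or other phosphatases of MAP kinases passed the adjusted threshold by limma, edgeR or DESeq2 in either population, and at an unadjusted p under 0.05 limma gave 2 of the 35 tested in LK and 8 of the 40 tested in LSK cells, beside 6.56% and 17.9% of all genes. Of the MAP2 kinases, Map2k1 was higher in Ripk3-/- LSK cells (0.98). Heat-shock genes were lower in Ripk3-/- cells in 2 of 7 in LK (Hspa1a and Hspa1b, at -1.38 and -1.19) and 4 of 7 in LSK cells. Mature neutrophil markers were higher in Ripk3-/- cells in 4 of 7 in LK (Ltf at 2.60, with Ngp, Camp and S100a9) and 5 of 7 in LSK cells. In Ripk3-/- LSK cells the LSK marker Flt3 (0.779) and Myb (0.7325), a marker shared by both populations, were also higher. The LK marker Gata1 (-1.324) and the monocyte marker Cd14 (-2.003) were lower there. In LK cells 0 genes on these progenitor and monocyte lists were called. The part of these markers in the members' differences was not tested.

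The genes whose levels ran most like those of the 3 most abundant members were found by Pearson correlation of log2 joint levels over the 8 libraries, among 10693 genes. LSK and LK libraries form separate clusters at most of these genes, so the coefficients describe shared clusters as much as anything within them, and no p is given. Dusp6 ran with Rgs2 (r = 0.997), a regulator of G protein signaling, and with Ctla2a and Tsc22d1. Rgs2 was at 883 and 984 CPM in WT LSK replicates 1 and 2, 624 and 669 in Ripk3-/- LSK, 386 and 372 in WT LK and 260.5 and 241 in Ripk3-/- LK libraries, the same order of the 4 groups as Dusp6. Dusp2 ran with Car2 (r = 0.984), a carbonic anhydrase, with Fyn, a Src family kinase, and with Arrdc1. Fyn was at 33.1 and 20.8 in WT LK and 7.997 and 13.7 in Ripk3-/- LK libraries, lower in both of the latter as Dusp2 was. Since Rgs2 and Fyn were picked by r over these same libraries, their likeness to Dusp6 and Dusp2 follows from that choice. Dusp1 ran with Afap1l1 (r = 0.985), Rtkn2 and Ipo11. Among the members themselves, r over the 8 libraries was 0.94 for Dusp5 with Dusp6 and 0.86 for Dusp2 with Dusp5, and it was -0.09 for Dusp1 with Dusp7.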

How the data were processed

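RNA of sorted LSK and LK cells was sequenced from TruSeq Stranded mRNA libraries, 2 per group. The submitters' processing notes name TopHat and mm9; the counter, the annotation and all versions are not given in the sources used here. The authors deposited 1 value per gene under the heading FPKM, but these signal values are CPM scaled by a TMM factor, with no division by length: every library had 100% of its non-zero values at a whole number (within 0.01) of reads, and the implied factors equaled edgeR's TMM factors computed within the 4 LSK and the 4 LK libraries. Reads were recovered from these steps (9782166 to 16280811 per library; 3 reads, taken as the floor, correspond to a signal of 0.186 to 0.311), and LSK and LK libraries were rescaled together (joint scale) to compare populations. The floor covers counting error only, whereas confidence intervals of fold changes are limma's and rest on the spread between libraries.

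The main test was limma 3.58.1 (R 4.3.3) with a trend on log2(value + 1), 4 group means over 8 libraries, for genes with a mean of at least 1 in the libraries compared, two-sided, with Benjamini-Hochberg adjustment over all genes tested and a threshold of 0.05. The fits share 1 estimate of the spread, and LK or LSK libraries recur between comparisons. Nothing says that replicates came from separate mice, so that p-values measure the spread between these libraries, which may be technical. Alternatives were edgeR 4.0.16 (quasi-likelihood test) and DESeq2 1.42.0 on the recovered reads, another pseudocount (0.1), a minimum mean of 5 or none, no trend, other scalings, a fit of 4 libraries, a replicate block and leaving out each library. The scripts were tested on simulated data.

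The members and the gene lists were chosen with earlier results of these data known. All 9 members are named. Other genes are named if they are on a list and had an adjusted p under 0.05 (at most 4 per list and comparison, by size of change), or if they were among the 3 genes most correlated with each of the 3 most abundant members (mean of at least 5 CPM), or as checks of genotype and sex (Ripk3, Xist and Y-linked genes). Positions are from GENCODE M21 (GRCm38) and promoter sequences from RefSeq (GRCm38.p6), which differ from mm9, and no coordinate was converted. The lists of marker genes of other cell types that gave no named result here were read in every group, with 1 B cell gene (Ebf1) at 0 in WT LK and 1 mast cell gene (Ms4a2) at 0 in WT LSK cells. One MAP kinase on the lists is not reported here.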

Additional observations from a re-analysis of the deposited data

Results flagged for a closer look

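Dusp2 was the member whose log2 fold change between genotypes had opposite signs in the 2 populations without overlap of the libraries. Both Ripk3-/- LSK libraries (404 and 426) lay above both WT LSK libraries (396 and 263), and both Ripk3-/- LK libraries (26.7 and 54.0) lay below both WT LK libraries (283 and 149). A change in LSK cells was not shown, since the log2 fold change there was 0.36 (SE 0.29, adjusted p = 0.544 by limma). The nearest LSK libraries were at 404 (Ripk3-/-) and 396 (WT). Of all genes, 21.4% were higher without overlap in Ripk3-/- LSK cells. The difference of the log2 fold changes, LSK minus LK, was 2.77 (SE 0.41). It is given without a p-value and was not tested as an independent result, because the LK values were known when the members were chosen.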

How the results depend on the processing

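The counts of members called kept within 1.5 times of the reported ones under most alternatives. Between genotypes in LK cells 1 member was called, against 0 with no filter, 0 with no trend and 3 with DESeq2, and 1 to 1 with each library left out. In LSK cells the count was 0 under every alternative run. For LSK against LK in WT the count of 4 became 2 with no filter and 1 with no trend, and 2 to 4 with each library left out (2 without WT LSK replicate 2); in Ripk3-/- cells it was 4, 3 with no trend (without Dusp1), and 4 to 5 with each library left out. For the difference of the genotype effect the count of 1 (Dusp2) became 0 with no filter and 0 with no trend, and 0 to 1 with each library left out (0 without WT LSK replicate 2). The cause of these shifts was not tested. Between populations signs turned for members that were not called: for LSK against LK in WT, Dusp2 was -0.01 without WT LSK replicate 1 and -0.19 without WT LK replicate 2, and Dusp8 was 0.45 without WT LSK replicate 1; in Ripk3-/- cells, Dusp7 was -0.079 with edgeR, -0.079 with DESeq2, -0.045 with median-centred libraries, -0.46 without Ripk3-/- LSK replicate 2 and -0.91 without Ripk3-/- LK replicate 2. With each library left out, these values ran from -0.19 to 0.75 for Dusp2, -0.55 to 0.45 for Dusp8 and -0.91 to 1.11 for Dusp7. For the genotype difference in LK cells, given without a test, the sign turned for Dusp4 (-0.07; 0.51 without WT LK replicate 2 and 0.64 without Ripk3-/- LK replicate 1), Dusp7 (0.01; -0.03 with pseudocount 0.1, -0.02 with median-centred libraries, -0.49 without WT LK replicate 1 and -0.99 without Ripk3-/- LK replicate 1), Dusp8 (0.24; -0.08 without WT LK replicate 2) and Dusp16 (-0.25; 0.08 without WT LK replicate 2 and 0.24 without Ripk3-/- LK replicate 2). The count of all genes called in LK cells, 66, became 9 with no filter, 3 with no trend, 177 with DESeq2, 125 with 4 libraries only, and 13 to 101 with each library left out. In LSK cells 363 became 198, 120, 613 and 195 in the same order, 237 with edgeR, and 99 to 262 with each library left out; median-centred libraries changed the split from 150 higher and 213 lower to 93 and 303, with the median of all genes at -0.12. LSK against LK gave 3814 genes in WT (1998 with no trend; 1502 to 4116 with each library left out) and 3072 in Ripk3-/- cells (1494 with no trend; 1489 to 3163), where median-centred libraries gave 976 higher and 2496 lower. The difference of the genotype effect gave 57, against 3 with no filter, 2 with no trend, 155 with DESeq2 and 17 to 90 with each library left out. Same-numbered libraries deviated from their group means with correlations of -0.10 (LK), -0.01 (LSK), -0.01 (WT) and -0.15 (Ripk3-/-), so no shared deviation was seen. With 2 libraries per group, this cannot tell whether same-numbered libraries came from the same mice or batch. With a replicate block the members called were 1 in LK, 0 in LSK, 4 and 4 between populations in WT and Ripk3-/-, and 1 for the difference, and all genes called were 79, 289, 3146, 2684 and 53. The crossed pairing in Ripk3-/- cells, chosen after seeing the data, gave 4 members and 3435 genes. With 2 libraries per group and few reads at Dusp4, Dusp8 and Dusp16, depth limits what could be detected there.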
